A study of Mus musculus with 29 samples.

Results

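The genes described here are 10 mouse genes whose enzymes split NAD, measured in RNA from whole atria: the cell-surface enzymes Cd38 and Bst1, the intracellular NAD hydrolase Sarm1, the poly(ADP-ribose) polymerase family members Parp1, Parp3 and Parp14, and the sirtuins Sirt1, Sirt2, Sirt3 and Sirt5. They were taken by name from the gene-level count tables, in which all 10 were found among 55292 gene names. Of the 10, 9 had enough reads to be tested in each experiment, and Sarm1 did not. 1 of the 9, Parp14, passed the test for a difference in level in a comparison of the study's groups: it was higher in NaV1.5 atria on the high-fat diet than on the regular diet, by a small margin that was lost when any of 10 single libraries was left out. No member passed between the genotypes or between nicotinamide riboside and vehicle.

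NAD is both a carrier of electrons and a substrate that several enzyme families break, releasing nicotinamide. Sirtuins use it to take acyl groups off proteins, the PARP family transfers its ADP-ribose to proteins, and CD38, BST1 and SARM1 cleave it or turn it into cyclic ADP-ribose. In the heart these enzymes draw on the same NAD as energy metabolism, and nicotinamide riboside is a precursor from which cells make NAD.

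The study sequenced polyadenylated RNA from the atria of male mice, as 29 libraries in 6 groups, under a title that concerns NAD deficiency and atrial fibrillation. Mice carrying a NaV1.5 transgene were given a high-fat diet with nicotinamide riboside (NR, 7 libraries) or the high-fat diet with vehicle (5 libraries). In the other experiment NaV1.5 mice received the high-fat diet (5 libraries) or the regular diet (4 libraries), and Ctrl mice received the high-fat diet (4 libraries) or the regular diet (4 libraries). The starting age was 5 weeks in every group. The high-fat diet ran for 4 weeks, and no duration is listed for the regular diet. The labels give neither the promoter nor the species of the transgene, they do not say what the Ctrl mice carry, and they do not state that each library is a separate mouse, so p-values measure the spread between these libraries, which may be technical.

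Libraries held 15318744 to 33061018 counts in the diet experiment and 13189995 to 29177180 in the NR experiment. The labels give each library a batch. In the diet experiment 16 libraries belong to batch 1, and Ctrl high-fat replicate 4 belongs to batch 2. In the NR experiment NR replicates 1 to 5 belong to batch 2, while NR replicates 6 and 7 and all 5 vehicle libraries belong to batch 3. Levels are in CPM, counts per 1000000 counts of a library whose total was scaled by the TMM method within its experiment. The NR libraries of batch 2 stood apart: 5 cardiomyocyte marker genes summed to 13180 to 15350 CPM in them, against 47440 to 49320 CPM in the NR libraries of batch 3 and 42390 to 53540 CPM in vehicle libraries. 5 atrial cardiomyocyte marker genes summed to at least 19580 CPM in every library, so the labelled tissue's markers were present. In whole tissue, fewer cells of a type and less RNA per cell cannot be told apart.

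Parp1, Sirt2 and Sirt5 differed together from library to library, as they did with some sums of cell type markers. Both are described further on, and the sequences just upstream of these genes' starts are shown for that reason. They are the 250 bases before the RefSeq start, from RefSeq annotation on GRCm38, written 5′ to 3′ along the gene's strand, with capitals marking the GC box GGGCGG (read as CCGCCC on the other strand), the motif bound by Sp-family factors. The windows are chr1:180568641-180568890 for Parp1, chr7:28766502-28766751 for Sirt2 and chr13:43365285-43365534 for Sirt5, all on the plus strand. In the annotation used for counting, 17 bases of the Sirt2 window and 39 bases of the Sirt5 window lie inside the gene.
Parp1: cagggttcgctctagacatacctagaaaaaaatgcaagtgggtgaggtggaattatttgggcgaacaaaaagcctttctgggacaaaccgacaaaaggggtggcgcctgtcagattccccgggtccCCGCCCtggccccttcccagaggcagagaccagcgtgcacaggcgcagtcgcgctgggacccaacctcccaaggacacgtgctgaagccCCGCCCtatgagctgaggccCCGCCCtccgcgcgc
Sirt2: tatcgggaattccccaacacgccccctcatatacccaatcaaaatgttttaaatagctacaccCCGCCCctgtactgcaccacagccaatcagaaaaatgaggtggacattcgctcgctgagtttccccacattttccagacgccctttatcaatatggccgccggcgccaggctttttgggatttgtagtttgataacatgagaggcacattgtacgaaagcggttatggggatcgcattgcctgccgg
Sirt5: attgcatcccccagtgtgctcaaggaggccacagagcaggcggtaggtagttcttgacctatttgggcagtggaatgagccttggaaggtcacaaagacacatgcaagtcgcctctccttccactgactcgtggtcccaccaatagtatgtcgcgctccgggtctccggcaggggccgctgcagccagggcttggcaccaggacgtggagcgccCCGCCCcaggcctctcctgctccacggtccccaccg
The Parp1 window held 3 GC boxes and 16 CpG dinucleotides. The Sirt2 and Sirt5 windows each held 1 GC box and 13 CpG dinucleotides, against a median of 6 CpG over 32851 windows of the same length. Windows were available for 8 of the 10 genes, 9 windows in all because Sirt3 had 2, and 6 of the 9 held a GC box on either strand, as did 32.7% of all windows. Of the Sirt3 windows 1 held GC boxes and the other held none. The interferon-stimulated element (TTTC, any 2 bases, TTTC), searched on both strands, was in 0 of the 9 and in 2.98% of all windows. Bst1 and Parp14 had no window, so neither was searched for any of these motifs. The TATA box TATAAA was in 12.4% of all windows and in none of the 3 printed here. These matches are a description of letters, not of binding.

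Among the 10 genes, Sirt2, a mainly cytosolic deacetylase, had the highest level per length in atria and Sarm1 the lowest. Levels between genes are given as CPM per kilobase of exon, as the mean ± SD over the 16 batch 1 libraries of the diet experiment. Sirt2 averaged 19.9 ± 1.52, Parp3 11.6 ± 1.44 and Parp1 8.58 ± 1.32 CPM per kilobase. Parp3 and Parp1, both recruited to DNA breaks, overlapped in their library values, while every library of Sirt2 (17.1 to 22.1) lay above every library of Parp3 (8.12 to 14.4).

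**Figure D1:**
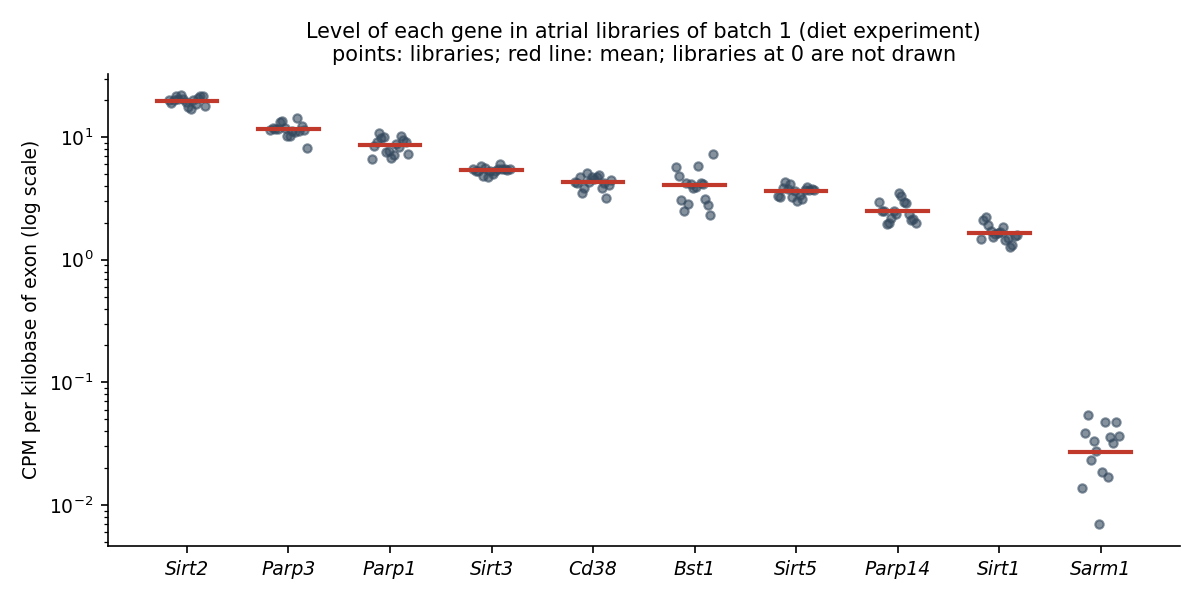
Level of each of the 10 genes in the 16 batch 1 libraries of the diet experiment. The vertical axis is CPM per kilobase of exon on a log scale, points are libraries and red lines are means; Sirt2 leads with a mean of 19.9 and Sarm1 is last with 0.0270, and Sarm1 libraries at 0 cannot be drawn on this axis.

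The mitochondrial sirtuins were intermediate. Sirt3, the main deacetylase of the mitochondrial matrix, averaged 5.40 ± 0.334 CPM per kilobase, and Sirt5, which removes succinyl and malonyl groups, averaged 3.61 ± 0.362. Cd38, the main NAD-degrading ectoenzyme of many tissues, averaged 4.29 ± 0.517 CPM per kilobase, and its neighbour Bst1 averaged 4.05 ± 1.35. Parp14, a mono-ADP-ribosyltransferase whose gene is induced by interferon, averaged 2.51 ± 0.480, and Sirt1, the nuclear deacetylase, 1.66 ± 0.261 CPM per kilobase. From Sirt3 down to Sirt1 the range of each gene over the libraries overlapped that of the next gene in the order. All genes were measured in the same libraries, so overlapping ranges do not show equal levels. Parp3 was above Parp1, Sirt3 above Cd38, and Parp14 above Sirt1, in every batch 1 library of the diet experiment. The other neighbours with overlapping ranges changed places in some libraries. The ranges of Parp1 and Sirt3 did not overlap, nor did those of Sirt1 and Sarm1.

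Sarm1, the NAD hydrolase of axon degeneration, was close to the detection limit. It had 0 to 7 counts per library in the diet experiment and 0 to 4 in the NR experiment, 78 counts in all 29 libraries, of which 4 were at 0. A count of 0 allows a level of up to 0.0907 to 0.227 CPM, depending on the library (3 counts of its total; counting error only). Differences in Sarm1 between groups were not detectable at this depth, and it was left out of the tests.

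In the NR experiment the order depended on the batch. In the 5 NR libraries of batch 2 Bst1 came first with a mean of 14.9 CPM per kilobase, followed by Sirt2 (11.6), Parp3 (10.4) and Cd38 (10.4). In the 2 NR libraries of batch 3 Sirt2 (17.03), Parp3 (14.6) and Parp1 (12.5) led, and Bst1 was at 4.08. In the 5 vehicle libraries Sirt2 (15.01), Parp3 (13.4) and Parp1 (12.9) led as well, ahead of Cd38 (6.79), Sirt3 (5.89), Parp14 (4.75), Sirt1 (4.196), Bst1 (3.59) and Sirt5 (3.25). The experiments were scaled separately, and no test was made between them. Cd38 and Bst1 lie next to each other on chromosome 5, on the same strand, with 24566 bases between them (GRCm38; Bst1 chr5:43818885-43843986, Cd38 chr5:43868553-43912375). Over the 16 batch 1 libraries their log2 CPM had a Pearson r of 0.341 (Spearman rho 0.332), and 0.00575 without the 2 libraries farthest from the median of Cd38. Leaving out the libraries most extreme in Cd38 also narrows its range, so this cannot decide whether a weak relation rested on them.

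The first comparison asked what the high-fat diet did in NaV1.5 atria. Parp14 (chr16:35832874-35871544, minus strand, GRCm38) was at 21.9, 32.6, 30.6, 27.4 and 27.2 CPM in the NaV1.5 high-fat libraries, replicates 1 to 5, against 22.1, 19.5, 20.1 and 18.7 CPM in the NaV1.5 regular-diet libraries, replicates 1 to 4. In 4 of the 5 high-fat libraries it was above every regular-diet library, and replicate 1 was below the highest of them, so the groups overlapped by this library. The mean was 27.9 ± 4.09 CPM on the high-fat diet (SD, n = 5) and 20.1 ± 1.44 CPM on the regular diet (SD, n = 4). The fitted log2 difference, high-fat minus regular with a batch term, was 0.47 with a standard error (SE) of 0.11 and a 95% interval from 0.24 to 0.71, a 1.39-fold rise (edgeR quasi-likelihood test, p adjusted over 16168 genes by Benjamini-Hochberg = 0.0431; DESeq2 adjusted p = 0.00562). Parp14 was 1 of 9 members called at an adjusted p below 0.05, and over all genes tested 1.13% were called, 0.47% as higher (18.9% at an unadjusted p below 0.05; 6.38% of those DESeq2 tested).

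The rise of Parp14 was near the threshold. It passed no longer without NaV1.5 regular-diet replicate 1 (edgeR adjusted p = 0.063), 2 (0.121) or 3 (0.127), without NaV1.5 high-fat replicate 2 (0.118), 3 (0.125) or 5 (0.0675), without Ctrl regular-diet replicate 1 (0.0541), 2 (0.0558) or 3 (0.0534), or without Ctrl high-fat replicate 2 (0.0598). It was called in the other 7 of the 17 fits that each left out 1 library, and the log2 difference ranged from 0.41 to 0.55 over the 17. It was also lost without the batch term (adjusted p = 0.051) and with offsets for GC content and gene length (log2 difference 0.40, adjusted p = 0.120).

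Sums of other genes are given here beside Parp14 for the same libraries. 15 interferon-response genes summed to 331 to 479 CPM in NaV1.5 high-fat and 318 to 372 CPM in NaV1.5 regular-diet libraries. All 15 had a fitted log2 difference above 0 (median 0.21, against -0.01 over all genes), 0 passed by edgeR (4 at an unadjusted p below 0.05), while DESeq2 called 2. The nearest to the threshold were Rsad2, an antiviral enzyme (0.82, SE 0.24, edgeR adjusted p = 0.0786), and Gbp2, a guanylate-binding GTPase (0.47, SE 0.15, edgeR adjusted p = 0.108). Rsad2 passed without Ctrl regular-diet replicate 3 (adjusted p = 0.046) and Gbp2 without NaV1.5 regular-diet replicate 4 (adjusted p = 0.0192). Next to Parp14 on chromosome 16 lie Dtx3l (chr16:35926511-35939151) and Parp9 (chr16:35938470-35972605), whose proteins form a ubiquitin ligase complex. Dtx3l itself belongs to the 15 interferon-response genes in the sum. Parp9 averaged 20.03 ± 3.10 CPM on the high-fat diet (SD, n = 5) and 16.97 ± 1.61 CPM on the regular diet (SD, n = 4), a log2 difference of 0.24 (SE 0.11, edgeR adjusted p = 0.254). The cardiomyocyte marker sum was 30960 to 36250 CPM in NaV1.5 high-fat and 35940 to 41400 CPM in NaV1.5 regular-diet libraries, with 0 of 5 markers called by edgeR and 1 by DESeq2. Of these 5 markers 2 had a log2 difference above 0 and 3 below (median -0.09). The atrial cardiomyocyte marker sum was 40250 to 44200 CPM in NaV1.5 high-fat and 45340 to 56400 CPM in NaV1.5 regular-diet libraries, without overlap. Of its 5 markers 2 had a log2 difference above 0 and 3 below (median -0.04). Only 1 passed: Nppa, which encodes atrial natriuretic peptide, fell by 0.44 (SE 0.09, edgeR adjusted p = 0.0279). The sum of 5 white adipocyte markers was low in both groups, 0.0525 to 4.03 CPM in NaV1.5 high-fat and 0.269 to 16.1 CPM in NaV1.5 regular-diet libraries. All 4 tested adipocyte markers were below 0 at an unadjusted p below 0.05 (median -2.53), and 0 passed by edgeR or DESeq2. Mitochondrial genes held 20.4 to 25.3% of counts in NaV1.5 high-fat and 18.8 to 20.6% in NaV1.5 regular-diet libraries. Over the 16 batch 1 libraries of all 4 groups, log2 CPM of Parp14 had r = 0.837 (rho 0.832) with the interferon sum and r = -0.75 (rho -0.653) with the cardiomyocyte sum. Without the 2 libraries farthest from the median of each sum these were 0.763 and -0.564. The libraries share a depth and a scaling factor for all genes, and the part of these genes and of the mitochondrial share in the Parp14 difference was not tested.

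**Figure D2:**
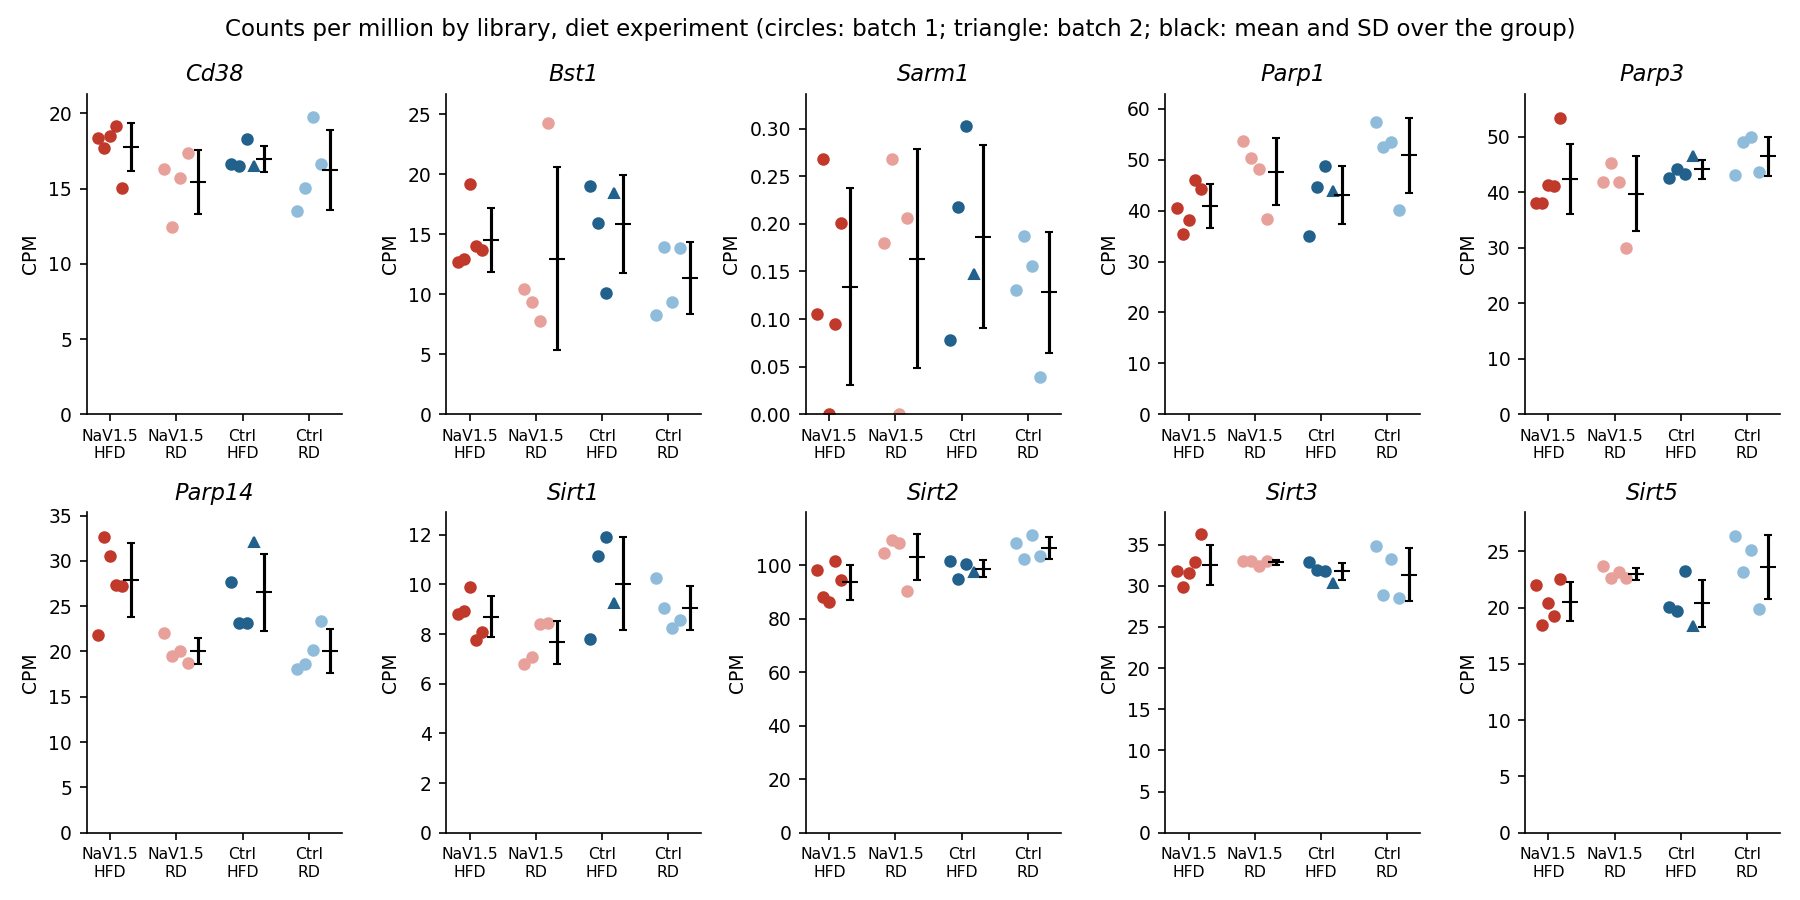
CPM of the 10 genes by group in the diet experiment, one panel per gene; circles are batch 1 libraries, the triangle is the batch 2 library, black marks are the group mean and SD, and each vertical axis starts at 0. In Parp14 4 of the 5 NaV1.5 high-fat libraries lie above the 4 NaV1.5 regular-diet libraries, while in Bst1 a single NaV1.5 regular-diet library, at 24.3 CPM, lies far above the rest of its group.

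No other member passed in this comparison. Their fitted log2 differences ran from -0.22 for Parp1 to 0.20 for Cd38, and over the 9 members 5 were above 0 and 4 below, with a median of 0.09, beside 47.7% of all genes above 0. Sirt5 was at 22.0, 18.5, 20.4, 19.2 and 22.5 CPM in NaV1.5 high-fat libraries, against 23.7, 22.6, 23.2 and 22.6 CPM in NaV1.5 regular-diet libraries. All high-fat libraries were below all regular-diet libraries, the highest and the lowest being nearly equal, and Sirt5 did not pass (edgeR adjusted p = 0.338). Over all genes, groups failed to overlap in 5.91% and were lower on the high-fat diet in 3.26%. Sirt3 was the steadiest member, with 29.8 to 36.4 CPM in NaV1.5 high-fat and 32.4 to 33.1 CPM in NaV1.5 regular-diet libraries. Its exons share 418 bases with Ric8a and 342 with Psmd13 on the other strand, and since the counting was not stranded, reads of these genes cannot be told apart there.

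The same diet comparison in Ctrl atria gave no call. In Ctrl high-fat libraries Parp14 was at 27.6, 23.2 and 23.1 CPM in batch 1 and 32.1 CPM in the batch 2 library, against 18.1, 18.6, 20.2 and 23.4 CPM in Ctrl regular-diet libraries. The groups overlapped through regular-diet replicate 4. The log2 difference was 0.30 (SE 0.12, 95% interval 0.04 to 0.56, edgeR adjusted p = 0.532), from the batch 1 libraries alone, because the batch term takes up Ctrl high-fat replicate 4. Over all genes 0% were called by edgeR (8.49% at an unadjusted p below 0.05; DESeq2 called 21 genes, 0.434%), and 0 of 9 members were called by edgeR. DESeq2 gave an adjusted p for 4 of the 9, not for Parp14, and called 0. 1 member, Parp14, had an unadjusted p below 0.05, and the log2 differences of the 9 ranged from -0.25 for Parp1 to 0.42 for Bst1.

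Sirt2 stood at 102, 94.9 and 101 CPM in the batch 1 Ctrl high-fat libraries and at 97.4 CPM in the batch 2 library, against 108, 102, 111 and 104 CPM in Ctrl regular-diet libraries. All Ctrl high-fat libraries were below all Ctrl regular-diet libraries, as they were in 4.77% of all genes (10% in either direction, batch 1 libraries), and Sirt2 did not pass (edgeR adjusted p = 0.747). Whether the diet difference itself depended on genotype was tested as an interaction. For Parp14 it was 0.18 larger in NaV1.5 than in Ctrl atria on the log2 scale (SE 0.17, 95% interval -0.17 to 0.53, edgeR adjusted p = 0.9999). No member passed and 0% of all genes did (DESeq2 called 0 genes; edgeR gave 2.26% of them an unadjusted p below 0.05), and the smallest unadjusted p of a member was that of Parp3, 0.278, with an interaction of 0.19 (SE 0.17).

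Averaged over both genotypes, a comparison added after the values had been seen, Parp14 rose on the high-fat diet by 0.38 on the log2 scale (SE 0.08, edgeR adjusted p = 0.0172; DESeq2 adjusted p = 0.0012). It was 1 of 9 members called, against 4.95% of all genes, of which 2.16% as higher (23.5% at an unadjusted p below 0.05; 11.5% by DESeq2). Without Ctrl high-fat replicate 1 Parp14 did not pass (0.34, edgeR adjusted p = 0.0597), nor with offsets for GC content and length (0.33, adjusted p = 0.0509). Parp1, the abundant sensor of DNA breaks, was at 35.5 to 46.1 CPM in NaV1.5 high-fat and 38.3 to 53.6 CPM in NaV1.5 regular-diet libraries, and at 35.1 to 48.7 CPM in Ctrl high-fat and 40.1 to 57.3 CPM in Ctrl regular-diet libraries. Its groups overlapped in both genotypes, and its averaged log2 difference was -0.23 (SE 0.09, edgeR adjusted p = 0.128). Parp1 passed without Ctrl regular-diet replicate 4 (-0.28, adjusted p = 0.0486) or without NaV1.5 regular-diet replicate 4 (-0.28, adjusted p = 0.0353). Sirt5 differed by -0.17 (SE 0.07, edgeR adjusted p = 0.149) and Sirt2 by -0.12 (SE 0.06, edgeR adjusted p = 0.209), and neither passed.

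Bst1, which encodes an ADP-ribosyl cyclase related to CD38, rested on a single library. In NaV1.5 libraries it was at 12.7, 12.9, 19.2, 14.0 and 13.7 CPM on the high-fat diet, against 10.5, 9.34, 7.74 and 24.3 CPM on the regular diet. Regular-diet replicate 4 was above every high-fat library, and the other 3 were below every one. Averaged over both genotypes its difference was 0.30 (SE 0.22, edgeR adjusted p = 0.453), and without NaV1.5 regular-diet replicate 4 it passed at 0.54 (adjusted p = 0.0308). In that same library the mesothelial genes Upk3b, Wt1, Lrrn4, Krt19 and Upk1b, a list added after the values had been seen, summed to 480.9 CPM, the highest of its group (200.8 to 480.9 CPM). Their sums were 343 to 471 CPM in NaV1.5 high-fat libraries, and 316 to 545 CPM in Ctrl high-fat against 250 to 402 CPM in Ctrl regular-diet libraries of batch 1. Over the 16 batch 1 libraries log2 CPM of Bst1 had r = 0.903 (rho 0.9) with this sum, and r = 0.894 without the 2 libraries farthest from its median.

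**Figure D3:**
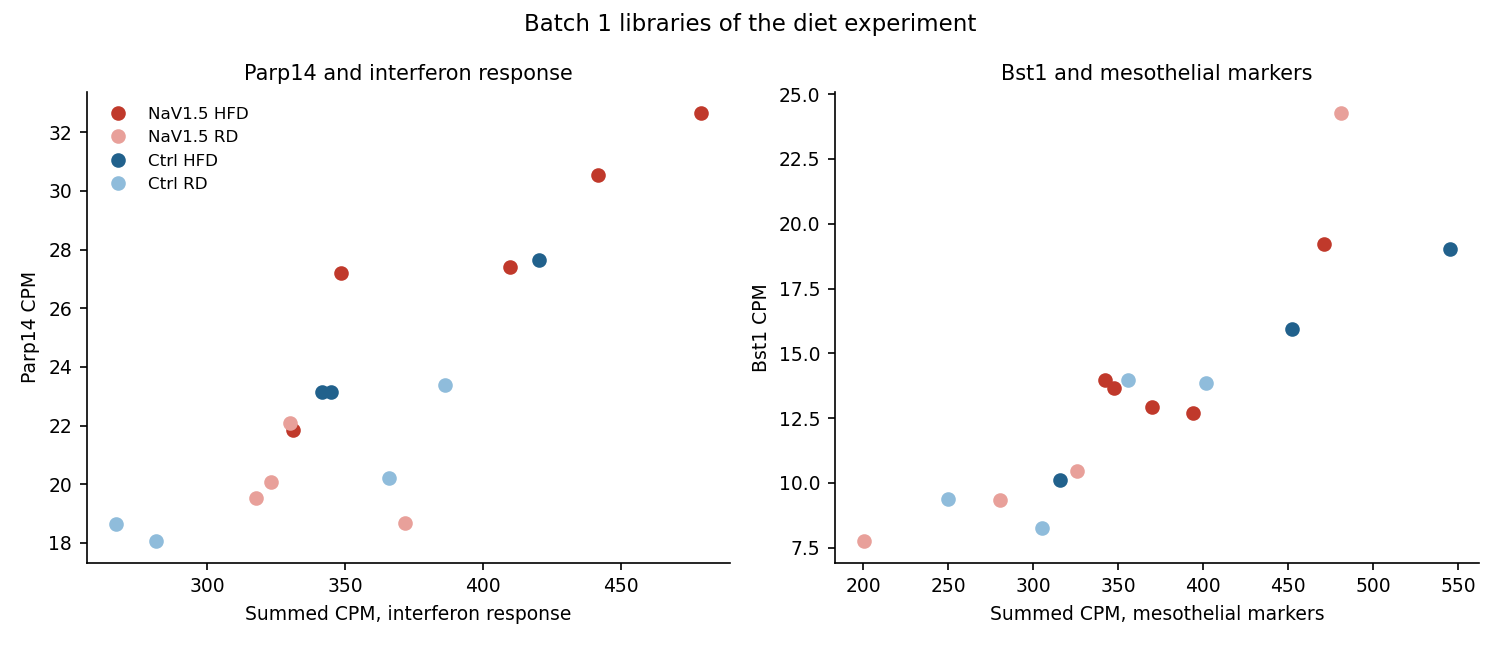
Parp14 against the summed CPM of 15 interferon-response genes, and Bst1 against the summed CPM of 5 mesothelial genes, in the 16 batch 1 libraries, coloured by group. Both clouds slope upward (r = 0.837 and 0.903 on the log2 scale), and the NaV1.5 regular-diet library with the highest Bst1, 24.3 CPM, is among the highest in mesothelial genes, 480.9 CPM.

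Between genotypes no member passed the test. In NaV1.5 against Ctrl atria on the regular diet 0.0124% of all genes were called and 0 of 9 members (0 at an unadjusted p below 0.05, where 6.11% of all genes were, and 0 by DESeq2, beside 0.148%). Parp3 had the smallest p: it was at 41.8, 45.4, 41.9 and 30.0 CPM in NaV1.5 libraries, against 43.2, 49.0, 50.01 and 43.7 CPM in Ctrl libraries. The groups overlapped through NaV1.5 replicate 2, at 45.4 CPM, while the other 3 NaV1.5 libraries were below every Ctrl library. The NaV1.5 library at 30.0 CPM was the farthest from the rest. The log2 difference was -0.22 (SE 0.12, edgeR adjusted p = 0.837), and -0.30 to -0.11 when single libraries were left out.

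In NaV1.5 against Ctrl atria on the high-fat diet 0.0866% of all genes were called, and again 0 of 9 members (0 at an unadjusted p below 0.05, where 8.05% of all genes were, and 0 by DESeq2, beside 0.472%). Sirt1 had the smallest p. It was at 8.83, 8.94, 9.90, 7.77 and 8.08 CPM in NaV1.5 high-fat libraries, against 7.80, 11.2 and 11.9 CPM in the batch 1 Ctrl high-fat libraries and 9.25 CPM in that of batch 2, with overlap at the low end. On the regular diet Sirt1 was at 6.78, 7.09, 8.39 and 8.45 CPM in NaV1.5 libraries, against 10.3, 9.07, 8.24 and 8.59 CPM in Ctrl libraries, where the groups overlapped through Ctrl replicate 3. The log2 difference was -0.24 on either diet (SE 0.14 each, edgeR adjusted p = 0.738 on the high-fat and 0.856 on the regular diet). Averaged over both diets, a comparison also added after the values had been seen, it was -0.24 (SE 0.10, 95% interval -0.45 to -0.04, edgeR adjusted p = 0.338), 0.452% of all genes were called, and 0 members were (1 of 9 at an unadjusted p below 0.05, where 11.4% of all genes were; 0 by DESeq2, beside 1.55%).

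The median log2 difference of the 9 members was -0.04 on the regular and -0.03 on the high-fat diet, against 0.01 over all genes in each, and 3 members were above 0 and 6 below on either diet, beside 51.4% of all genes above 0 on the regular and 51.2% on the high-fat diet. No member had groups without overlap, as 3.4% of all genes did on the regular and 5.44% on the high-fat diet (batch 1 libraries). Both comparisons of the diets and both of the genotypes draw on the same 4 groups, so they are not independent of each other. The 95% intervals show what sizes these data leave possible: for Sirt2 on the high-fat diet the interval was -0.25 to 0.09, for Cd38 -0.21 to 0.32, and for Bst1, the most variable member, -0.74 to 0.61.

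**Figure D4:**
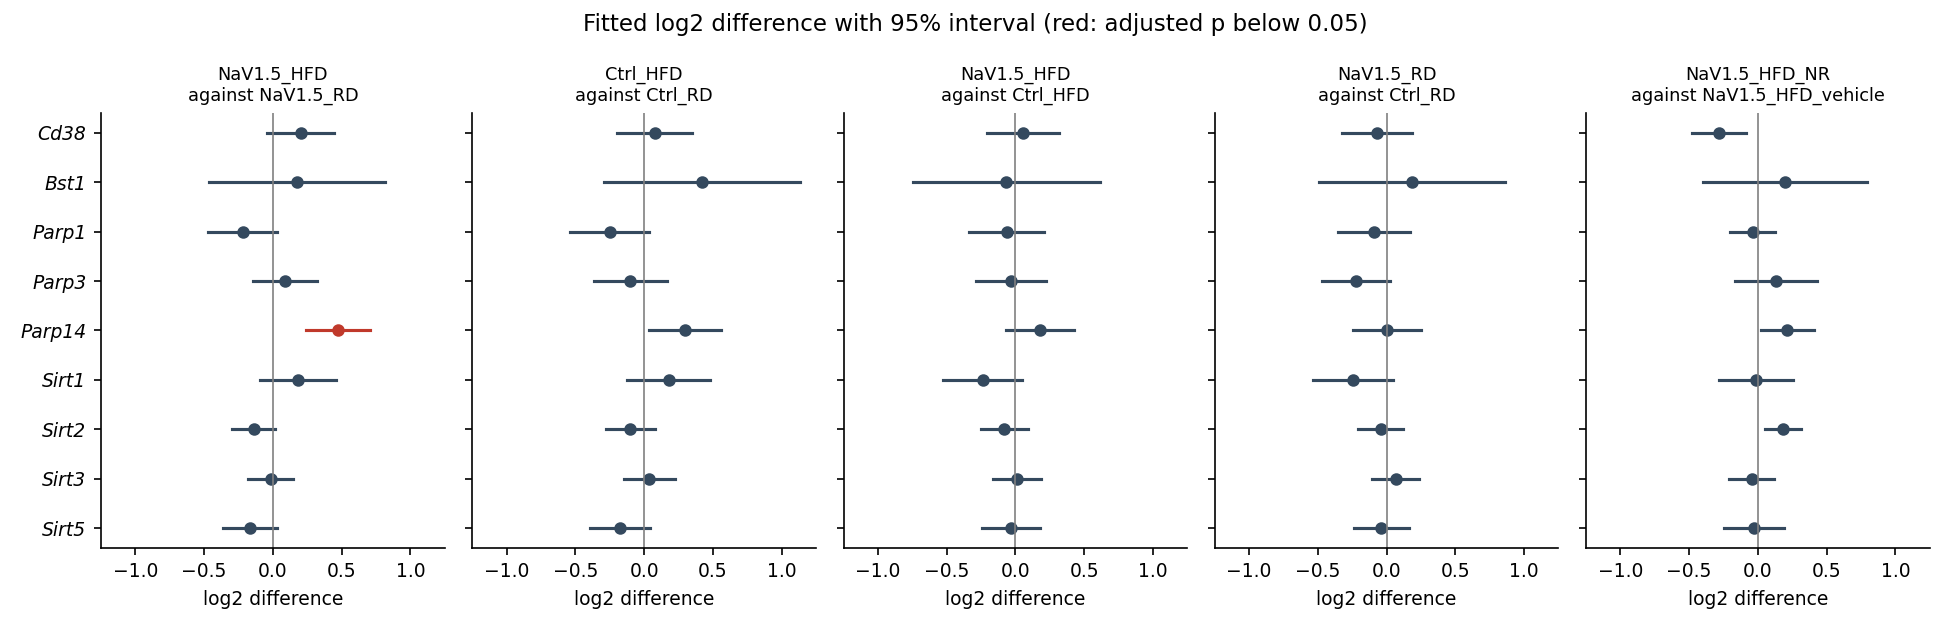
Fitted log2 differences of the 9 tested genes with 95% intervals, one panel per comparison, zero marked by a vertical line and red marking an edgeR adjusted p below 0.05. Parp14 in NaV1.5 high-fat against regular-diet atria, at 0.47, is called; the intervals of Parp14 for the diet in Ctrl atria and of Cd38, Parp14 and Sirt2 for NR also lie clear of 0, with an adjusted p of at least 0.226.

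Nicotinamide riboside against vehicle in NaV1.5 mice on the high-fat diet gave no call among the members, while 0.425% of all genes were called. With the batch term in the fit, 2 NR libraries and the 5 vehicle libraries, all of batch 3, carry this comparison. Of 9 members 3 had an unadjusted p below 0.05, where 11.1% of all genes did, and 0 passed by DESeq2, beside 1.59%. Cd38 was at 23.1 and 20.3 CPM in the batch 3 NR libraries, against 24.9, 28.9, 24.4, 27.2 and 26.7 CPM in vehicle libraries. Both NR libraries were below all vehicle libraries, and the log2 difference was -0.28 (SE 0.09, edgeR adjusted p = 0.226). Sirt2 was at 82.7 and 88.8 CPM in the batch 3 NR libraries, against 75.7, 72.8, 74.4, 78.1 and 76.9 CPM in vehicle libraries. Both NR libraries were above all vehicle libraries, with a log2 difference of 0.18 (SE 0.06, edgeR adjusted p = 0.274).

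Parp14 was at 46.9 and 55.7 CPM in the batch 3 NR libraries, against 46.5, 41.3, 41.8, 41.5 and 49.9 CPM in vehicle libraries. These overlapped, and the log2 difference was 0.21 (SE 0.09, edgeR adjusted p = 0.397). Of 9 members 2, Cd38 and Sirt2, had batch 3 groups that did not overlap, as 14.2% of all genes did (5.93% higher and 8.25% lower with NR). The sizes depended on which of the 2 NR libraries was left out. Without NR replicate 6 the log2 differences were -0.38 for Cd38, 0.23 for Sirt2 and 0.33 for Parp14, and none passed. Without NR replicate 7 the log2 differences were -0.18 for Cd38, 0.14 for Sirt2 and 0.10 for Parp14, and none of the 3 had an unadjusted p below 0.05. The interferon genes summed to 363 to 568.2 CPM in the batch 3 NR libraries and 343 to 413 CPM in vehicle libraries, and the 9 members had a median log2 difference of -0.02, against -0.01 over all genes.

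**Figure D5:**
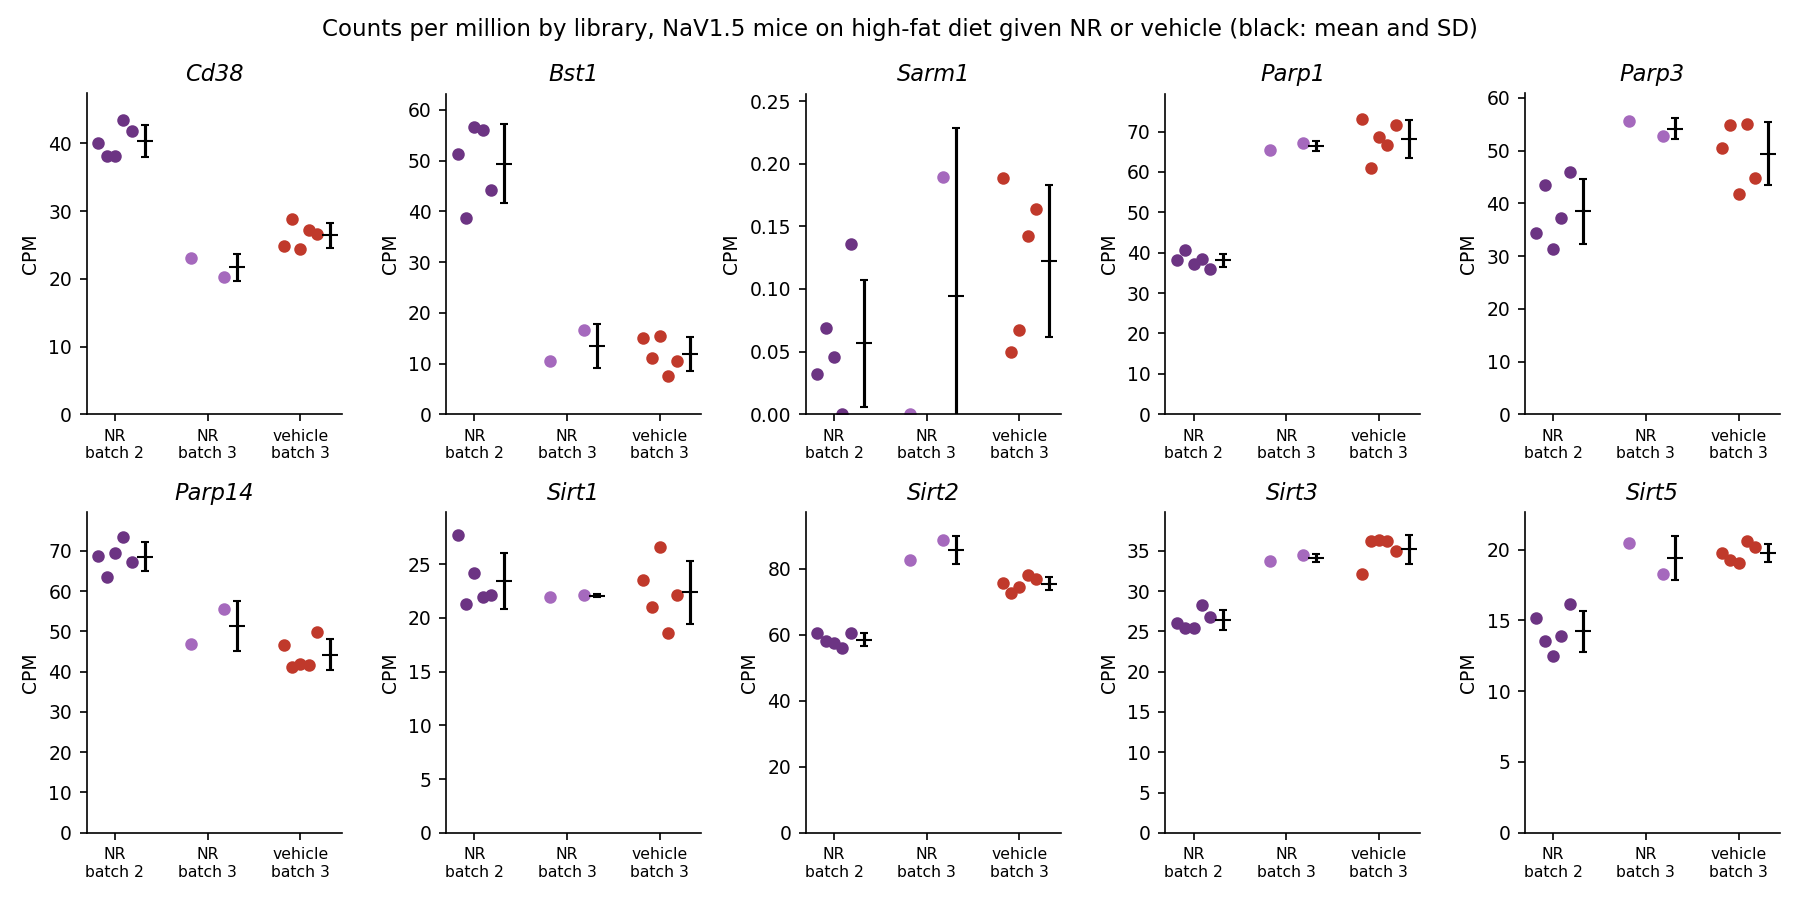
CPM of the 10 genes in the NR experiment, with NR libraries of batch 2, NR libraries of batch 3 and vehicle libraries of batch 3 side by side; points are libraries, black marks are the mean and SD, and each axis starts at 0. For 8 of the 9 tested genes every batch 2 NR library lies outside the range of the batch 3 NR libraries.

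Within the NR group the libraries of batch 2 and batch 3 differed more than the treatment groups did. Bst1 was at 38.7 to 56.7 CPM in the 5 NR libraries of batch 2, against 10.5 and 16.6 CPM in the 2 of batch 3 and 7.59 to 15.4 CPM in vehicle libraries. Cd38 was at 38.1 to 43.5 CPM and Parp14 at 63.6 to 73.5 CPM in the batch 2 NR libraries, also above all of batch 3. Parp1 was at 36.0 to 40.6 CPM in batch 2 NR libraries, against 65.5 and 67.2 CPM in those of batch 3, and Parp3, Sirt2, Sirt3 and Sirt5 were likewise lower in every batch 2 library. Only Sirt1 overlapped. Members failed to overlap in 8 of 9 cases, 3 higher and 5 lower, beside 59% of all 16482 genes. The mesothelial sum was 1093 to 1630 CPM in batch 2 NR libraries, against 240.6 and 509 CPM in batch 3 NR libraries, and the endothelial marker sum was 1282 to 1355 CPM, against 893 and 979 CPM. Without the batch term Cd38 would be higher with NR (0.41) and Sirt2 lower (-0.19), the opposite of the batch 3 difference. Batch 2 holds no vehicle library, so in it NR and batch cannot be told apart.

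Across the 16 batch 1 libraries of the diet experiment the likeness of members to each other and to other genes was described by the Pearson r of log2 CPM, over libraries that share groups and scaling. Parp1 and Sirt5 had r = 0.77 (rho 0.771), Parp1 and Sirt2 r = 0.721 (rho 0.729), and Sirt2 and Sirt5 r = 0.575 (rho 0.579). Without the 2 libraries farthest from the median of the first gene these were 0.691, 0.784 and 0.418. Their promoter windows are those printed above. All 3 also varied with some of the marker sums. With the cardiomyocyte sum r was 0.653 for Parp1, 0.695 for Sirt2 and 0.67 for Sirt5. With the atrial cardiomyocyte sum r was only -0.00343, 0.244 and 0.262 in the same order. With the sum of ventricular cardiomyocyte markers it was 0.714, 0.565 and 0.617. The endothelial sum gave -0.672, -0.565 and -0.524, and the sum of fibroblast markers -0.617, -0.689 and -0.441. In that order r was -0.779, -0.579 and -0.743 with the interferon sum, and -0.713, -0.664 and -0.56 with the mesothelial sum. The part of these sums in the likeness of the 3 genes was not tested. Bst1 ran the other way to Parp1 (r = -0.737) and to Sirt2 (-0.733), and Parp14 to Sirt5 (-0.767).

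The genes most like Bst1 were Chst4 (r = 0.946), Msln (0.941), which encodes the mesothelial surface protein mesothelin, and Slc9a3r1 (0.939). In NaV1.5 regular-diet replicate 4, the library highest in Bst1, Chst4 was at 33.6 CPM, its highest in the 17 libraries, and Msln at 176 CPM, near its highest of 180.8 CPM. Those most like Parp14 were Fam111a (0.922), Rab8b (0.909) and Nucb2 (0.909), and those most like Parp1 were Prrc2b (0.972), Sec24c (0.968) and Ogdh (0.968), the last of which encodes a subunit of the mitochondrial 2-oxoglutarate dehydrogenase complex. For Sirt2 they were Abhd4 (0.948), Rftn1 (0.929) and Dus1l (0.928), and for Sirt5 Trappc9 (0.867), Pelp1 (0.864) and Sorcs2 (0.862). The highest r was lower for Parp3 (Txlna, 0.857), Sirt1 (Magi3, 0.861), Cd38 (Plekha8, 0.831) and Sirt3 (Xkr6, 0.779), though for Sirt1 hardly below Sirt5. These partners are the highest among all tested genes, and the r that chance alone gives in such a pick was not computed.

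The rest of the NAD pathway was read from lists of other genes. None of the other 3 sirtuins, 13 other PARP-family genes, 9 genes of ADP-ribose removal, 7 tested ectoenzymes of NAD breakdown and 13 tested genes of NAD synthesis passed by edgeR in the 5 comparisons of groups or in the interaction. In NaV1.5 high-fat against regular-diet atria the gene closest to the threshold was Nmrk2, the muscle form of nicotinamide riboside kinase. It was at 12.9 to 30.6 CPM on the high-fat diet (median 18.9) and 8.80 to 10.9 CPM on the regular diet (median 9.83), so the groups did not overlap, and the log2 difference was 1.10 (SE 0.26, edgeR adjusted p = 0.0538; DESeq2 adjusted p = 0.00103). It passed by edgeR without Ctrl regular-diet replicate 2 (adjusted p = 0.0396), NaV1.5 high-fat replicate 4 (0.0209) or NaV1.5 regular-diet replicate 4 (0.0452). Art1, which encodes a muscle ecto-ADP-ribosyltransferase, averaged 267 ± 38.3 CPM on the high-fat diet (SD, n = 5) and 346 ± 23.0 CPM on the regular diet (SD, n = 4), a log2 difference of -0.38 (SE 0.10, edgeR adjusted p = 0.0659; DESeq2 adjusted p = 0.0125). Art1 passed by edgeR without NaV1.5 high-fat replicate 1 (adjusted p = 0.0424) or 4 (0.0498) or NaV1.5 regular-diet replicate 4 (0.0262). All 3 other sirtuins were below 0 (median -0.24), among them Sirt7 (-0.27, SE 0.11, edgeR adjusted p = 0.21) and Sirt6 (-0.24, SE 0.13, edgeR adjusted p = 0.31), and Sirt7 passed without NaV1.5 regular-diet replicate 4 (adjusted p = 0.0259). Of the 13 other PARP-family genes 10 were above 0 (median 0.07), with Tnks2 (0.18, edgeR adjusted p = 0.185) and Parp9 (0.24, adjusted p = 0.254) having the smallest p. Of the 9 genes of ADP-ribose removal 4 were above 0, and Macrod1 (-0.29, adjusted p = 0.17) and Adprh (-0.20, adjusted p = 0.178) had the smallest p.

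In the diet comparison averaged over both genotypes, in which 4.95% of all genes were called by edgeR, 1 of 13 other PARP-family genes, 1 of 13 genes of NAD synthesis and 1 of 7 ectoenzymes passed. None of the 3 other sirtuins and the 9 genes of ADP-ribose removal did (DESeq2 called 1 of the 9, Adprh). Outside the NAD pathway, 1 of the 15 interferon-response genes passed. Tankyrase 2, Tnks2, rose by 0.21 (SE 0.05, edgeR adjusted p = 0.0342), Nmrk2 rose by 0.77 (SE 0.19, adjusted p = 0.0342), the interferon-induced Gbp2 rose by 0.51 (SE 0.11, adjusted p = 0.02), and Art1 fell by 0.35 (SE 0.08, adjusted p = 0.0196), all on the log2 scale. Tnks2 passed in 6 of the 17 fits that left out 1 library, and not without NaV1.5 high-fat replicate 1, 2, 3 or 5, NaV1.5 regular-diet replicate 2 or 3, Ctrl high-fat replicate 1 or 2, or Ctrl regular-diet replicate 1, 2 or 3 (edgeR adjusted p = 0.0504 to 0.095). Nmrk2 passed in 9 of the 17, and not without NaV1.5 high-fat replicate 3, NaV1.5 regular-diet replicate 1, 2 or 3, Ctrl high-fat replicate 1 or 2, or Ctrl regular-diet replicate 1 or 3 (edgeR adjusted p = 0.0591 to 0.102). Gbp2 did not pass without Ctrl high-fat replicate 1 (adjusted p = 0.0615) or 2 (0.0517), nor Art1 without Ctrl high-fat replicate 2 (0.0616). With offsets for GC content and length Tnks2 differed by 0.10 (adjusted p = 0.314) and Art1 by -0.22 (adjusted p = 0.112).

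In NaV1.5 against Ctrl atria on the regular diet the smallest p values outside the members were those of Enpp1, an ectonucleotidase (-0.33, edgeR adjusted p = 0.651), and Nmnat3, the mitochondrial NAD-synthesising adenylyltransferase (-0.25, adjusted p = 0.769). On the high-fat diet Nmnat3 did not pass either (-0.31, adjusted p = 0.337). Averaged over both diets its difference was -0.28 (SE 0.07, edgeR adjusted p = 0.076; DESeq2 adjusted p = 0.0169), and it passed by edgeR without NaV1.5 high-fat replicate 1 (-0.30, adjusted p = 0.0462). With NR against vehicle Tnks2 (-0.20, edgeR adjusted p = 0.269) and Tiparp (-0.29, adjusted p = 0.279), a stress-induced mono-ADP-ribosyltransferase, had the smallest p, and neither passed.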

How the data were processed

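Raw gene counts were deposited by the authors, 1 table per library, made with featureCounts 2.0.1 without regard to strand on GENCODE vM25 gene models (GRCm38, mm10) with an added record, per the file headers, which was at 0 counts; STAR 2.7.6a and FastQC 0.11.7 are named in the submitters' processing notes. Libraries were TruSeq Stranded mRNA preparations, per the labels' protocols. Counts were summed by gene name, low genes were removed (filterByExpr), and each experiment was scaled (TMM) and fitted on its own with group and batch terms in edgeR 4.0.16 (robust quasi-likelihood F-test, R 4.3.3), with Benjamini-Hochberg adjustment over 16168 genes (diet) or 16482 genes (NR) and a threshold of 0.05. The SE is the log2 difference over the square root of F. DESeq2 1.42.0 was an alternative, as were no filter, no batch term, a replicate block, batch 3 alone, each library left out, and, added after the values were seen, offsets for GC content and length. The scripts were tested on simulated data. No libraries were identical. 2 regular-diet libraries without a number in their title were numbered in accession order. Log2 differences are given singly for members with an unadjusted p below 0.05 or, where none has one, the smallest p; of each other list, genes that passed are named, or those with the smallest p. Other members singled out were chosen after their values were seen. The members and lists were chosen with earlier results of these data known. Reads of near-identical copies could not be separated.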

Additional observations from a re-analysis of the deposited data

Results flagged for a closer look

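In 5 of 60 groups of 4 to 7 libraries, 1 library lay farther from the others than Dixon's test allows at the 95% level, which chance gives in about 5% of groups. Cd38 was at 18.28 CPM in Ctrl high-fat replicate 3, against 16.47 to 16.65 CPM in the other 3. Bst1 was at 24.26 CPM in NaV1.5 regular-diet replicate 4 (7.738 to 10.46 CPM in the others) and at 19.21 CPM in NaV1.5 high-fat replicate 3 (12.71 to 13.98 CPM in the others). Parp3 was at 53.37 CPM in NaV1.5 high-fat replicate 5 (38.05 to 41.25 CPM in the others). Sirt3 was at 32.38 CPM in NaV1.5 regular-diet replicate 3 (32.99 to 33.06 CPM in the others), a narrow spread.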

How the results depend on the processing

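The Parp14 difference for the diet in NaV1.5 atria kept its direction in every fit, but 0 members were called without the batch term, with the replicate block (0.43, edgeR adjusted p = 0.111) and with GC and length offsets. Averaged over genotypes 0 members were called with the block (Parp14 0.36, adjusted p = 0.0709) and with the offsets. For NR 5 members were called without the batch term and 8 with the block and no batch term. Genes called for genotype on the regular diet were 10 without the filter, 26 by DESeq2, 1 with the block and 4 with the offsets. For genotype on the high-fat diet they were 43 without the filter, 31 without the batch term, 83 by DESeq2 and 8 with the block. For the diet in NaV1.5 they were 837 by DESeq2, 27 with the block and 39 with the offsets, and for the diet in Ctrl 5 without the filter, 1 without the batch term and 21 by DESeq2. For genotype over both diets they were 138 without the filter, 262 by DESeq2, 36 with the block and 133 with the offsets, and for diet over both genotypes 1586 by DESeq2, 305 with the block and 213 with the offsets. For NR they were 140 without the filter, 4392 without the batch term, 243 by DESeq2, 9694 with the block and no batch term, 18 in batch 3 alone and 14 with the offsets.

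Leaving out 1 library gave 1 to 5 genes for genotype on the regular diet, 2 to 32 on the high-fat diet, 4 to 1138 for the diet in NaV1.5 (1138 without NaV1.5 regular-diet replicate 4; 0 to 1 members), 40 to 129 for genotype over both diets, 173 to 2202 for diet over both genotypes (0 to 3 members) and 1 to 66 for NR, and 0 for the diet in Ctrl and the interaction. Without the batch term or with the block and no batch term, the NR difference changed sign for Cd38 (0.41 and 0.61), Sirt2 (-0.19 and -0.37), Oard1 (0.035 and 0.12) and Enpp3 (-0.46 and -0.92). Sirt7 changed sign with the offsets for the diet in Ctrl (0.00644) and with the block for genotype over both diets (0.038), and Oard1 with the block in the interaction (0.00966). With single libraries left out, Sirt7 ranged from -0.073 to 0.15 (genotype, regular diet) and -0.090 to 0.026 (both diets), Enpp3 from -0.017 to 0.17 (genotype, high-fat diet), Sirt4 from -0.23 to 0.038 (interaction) and Nt5e from -0.28 to 0.043 (NR). Of the 114 results on single genes, the alternatives other than left-out libraries gave 656 values in the same direction and not crossing the threshold. Values to which DESeq2 gave no adjusted p, such as Parp14 for the diet in Ctrl, are counted among these. A further 19 were newly called, 13 were no longer called and 11 had the other sign. The cause was not tested.

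Correlations between the deviations of same-numbered libraries were low. They ran from -0.172 to -0.149 for the diet in NaV1.5 and 0.0708 to 0.171 for the diet in Ctrl. For genotype they ran from 0.0993 to 0.105 on the regular and -0.114 to 0.189 on the high-fat diet. For NR they ran from -0.105 to 0.214. In most cases, but not in all, a library of another number correlated more. With so few pairs the check cannot decide whether same-numbered libraries share more than a number. Depth limits Sarm1, and the interval of Bst1 is the widest. The batch term leaves 2 NR libraries with weight, and gives Ctrl high-fat replicate 4 none.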
